A study of Mus musculus with 16 samples.

Results

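The 10 genes Nek3, Smim19, Slc20a2, Vdac3, Polb, Ikbkb, Plat, Ap3m2, Golga7 and Hgsnat lie beside Kat6a on mouse chromosome 8 and are 10 of the 26411 genes counted in this study. They were chosen by their place within a few Mb of Kat6a, and with their levels in the 4 genotypes already known, so what follows for the comparisons between genotypes is a description without a test. All 10 passed the filter on low counts, which kept 15679 genes. They are not the only genes there, as 47 other tested genes lay within 5 Mb of Kat6a.

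The data are RNA-seq counts of 16 whole embryos at E9.5. Of these, 4 were wild type (Kat6a+/+Kat6b+/+) and 4 lacked Kat6a alone (Kat6a-/-Kat6b+/+). A further 4 carried the transgene on normal Kat6a (Kat6a+/+Tg(Kat6b)), and the last 4 carried it without Kat6a (Kat6a-/-Tg(Kat6b)). The Kat6a null allele is a deletion of several internal exons, and Tg(Kat6b) is a bacterial artificial chromosome that carries the whole of Kat6b, descends from 1 germline founder and is present in several copies. All mice were on a mixed FVB and BALB/c background. The wild-type embryos came from litters 801 and 803, which also gave the 4 Kat6a-/-Kat6b+/+ embryos, and from litters 2597 and 2598, which also gave the 4 Kat6a+/+Tg(Kat6b) embryos. The 4 Kat6a-/-Tg(Kat6b) embryos came from litters 483 and 498, which held no other genotype, so that litter and genotype cannot be told apart for that group.

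KAT6A and KAT6B are closely related lysine acetyltransferases that acetylate histone H3 and keep developmental genes active. A targeted mutation is inherited together with the DNA around it, and in a mixed background the flanking genes can come from another strain than the homologous segment of the wild-type littermates. Gene counts hold no sequence variants, so the strain of origin of the segment was not measured, and in this design the Kat6a null allele and alleles linked to it cannot be told apart.

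The libraries held 14407277 to 45665680 counted reads, with a median of 23042414. Levels are given as CPM, the counts scaled to a common library size. Kat6b was at 46.2 ± 2.45 CPM (mean ± SD, n = 4) in wild-type embryos and 192 ± 29.7 CPM in Kat6a+/+Tg(Kat6b) embryos, and its levels of 49.1 ± 2.03 and 197 ± 4.92 CPM in the Kat6a-/- embryos without and with the transgene matched the labels too. Whole-gene counts did not resolve the Kat6a deletion, since Kat6a was counted at 199 ± 16.5 CPM in wild-type and 202 ± 15.2 CPM in Kat6a-/-Kat6b+/+ embryos. Kat6a+/+Tg(Kat6b) replicate 1 stood apart, with a median log2 difference of -0.32 from the mean of all embryos over 753 genes longer than 8000 bases, where the other 15 libraries lay between -0.07 and 0.14. Blood, heart, neural and somite markers were present in every embryo, and trophoblast and decidua markers summed to at most 0.131 CPM.

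Between Nek3 and Hgsnat, the outermost of the 10 genes, lay 3.85 Mb of chromosome 8. Nek3, Smim19, Slc20a2, Vdac3, Polb, Ikbkb, Plat and Ap3m2 lie on the side of Kat6a with lower coordinates, and Golga7 and Hgsnat on the other. In wild-type embryos, where levels of different genes were compared per length of the gene (RPKM), Golga7 was the highest at 53.9 ± 2.18 RPKM and Ap3m2 the lowest at 3.00 ± 0.275 RPKM (n = 4). Vdac3 followed Golga7 at 45.6 ± 2.36 RPKM, then Polb at 24.3 ± 1.70 and Slc20a2 at 21.2 ± 1.01 RPKM. Plat at 13.9 ± 0.552, Ikbkb at 13.1 ± 0.894 and Smim19 at 11.7 ± 1.13 RPKM overlapped their neighbours in this order. Nek3 at 7.25 ± 0.468 and Hgsnat at 4.55 ± 0.393 RPKM overlapped none of the others.

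In Kat6a-/-Kat6b+/+ embryos Nek3 and Smim19 were lower and Hgsnat was higher than in wild type, while the 7 other genes, those nearest Kat6a among them, were close to their wild-type level. These 3 of 10 genes passed a false discovery rate (FDR) of 0.05 in edgeR's quasi-likelihood test over all genes, which 1.88% of all 15679 genes did. The groups did not overlap for these 3 genes, as for 7.97% of all genes. The contrast had served to choose the genes, so nothing is read from that count. The median log2 fold change was -0.05 over the 10 genes and 0.00 over all genes, and the median absolute log2 fold change was 0.09 and 0.08. In bulk RNA, fewer cells that express a gene and less RNA in each cell cannot be told apart.

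Nek3 encodes a serine/threonine kinase of the NIMA-related family. It lies at chr8:22618299-22656518 on the minus strand of GRCm39, 0.693 Mb from Kat6a. Its level was 15.3, 15.6, 15.2 and 13.5 CPM in the 4 wild-type embryos and 5.75, 7.14, 5.79 and 6.12 CPM in the 4 Kat6a-/-Kat6b+/+ embryos. Every Kat6a-/-Kat6b+/+ embryo was below every wild-type embryo, and the gap between the groups was wider than the range within either. With the transgene, the level was 12, 12.4, 11.0 and 10.1 CPM in Kat6a+/+Tg(Kat6b) and 5.66, 6.76, 7.46 and 8.52 CPM in Kat6a-/-Tg(Kat6b) embryos. These groups did not overlap either, and both Kat6a-/- groups lay together at the bottom of the range. The log2 fold change was -1.26 (SE 0.108) without the transgene, a level 2.39-fold lower, and -0.76 (SE 0.119) with it, a level 1.70-fold lower.

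Smim19 encodes a small membrane protein of which little is known. It lies at chr8:22951475-22967441 on the minus strand, 0.382 Mb from Kat6a. The wild-type embryos were at 15.8, 15.5, 15.9 and 18.9 CPM and the Kat6a-/-Kat6b+/+ embryos at 9.24, 11.3, 9.45 and 10.9 CPM, without overlap. The Kat6a+/+Tg(Kat6b) embryos were at 15.6, 13.4, 14.7 and 13.9 CPM and the Kat6a-/-Tg(Kat6b) embryos at 12, 10.6, 11.1 and 11.2 CPM, again without overlap. The fall was smaller than that of Nek3, with a log2 fold change of -0.66 (SE 0.0869) without the transgene and -0.31 (SE 0.0943) with it. In the GENCODE annotation 14.8% of the 5754 exon bases of Smim19 overlap exons of Slc20a2 on the other strand. The counts were deposited with a length of 1414 bases for Smim19, so the overlapping share of the counted bases is not known. The kit used keeps no strand, so reads from such a stretch could be counted for either gene or for neither.

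Hgsnat encodes a lysosomal acetyltransferase that works in the breakdown of heparan sulfate and is mutated in a form of Sanfilippo syndrome. It lies at chr8:26431351-26466798 on the minus strand, 2.998 Mb from Kat6a and on the far side from Nek3 and Smim19. The wild-type embryos were at 19.9, 23.3, 21.5 and 19.2 CPM and the Kat6a-/-Kat6b+/+ embryos at 35.5, 37.7, 39.2 and 35.0 CPM. All 4 Kat6a-/-Kat6b+/+ embryos were well above all wild-type embryos, in the opposite direction to Nek3 and Smim19. The Kat6a+/+Tg(Kat6b) embryos were at 29.4, 29.7, 27.1 and 25.5 CPM and the Kat6a-/-Tg(Kat6b) embryos at 32.7, 32.0, 29.3 and 36.9 CPM. Here the groups overlapped, and the Kat6a+/+Tg(Kat6b) embryos were all above wild type. The log2 fold change was 0.81 (SE 0.0715) without the transgene, a level 1.75-fold higher, and 0.17 (SE 0.0766) with it.

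**Figure D1:**
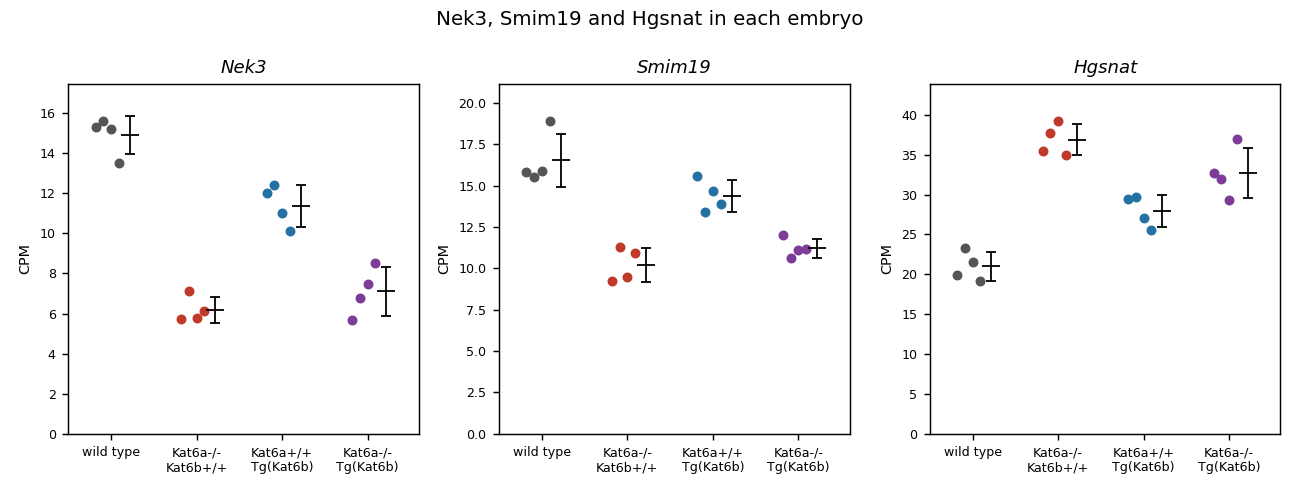
Level of Nek3, Smim19 and Hgsnat in CPM (vertical axes from 0) in each of the 16 embryos, by genotype. Points are embryos, and the bar and whiskers beside them are the mean and SD of the 4. Nek3 in Kat6a+/+Tg(Kat6b) embryos, at 10.1 to 12.4 CPM, lay between wild type at 13.5 to 15.6 CPM and Kat6a-/-Kat6b+/+ at 5.75 to 7.14 CPM, and Hgsnat was ordered the same way with the direction turned round.

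Wild-type and Kat6a-/-Kat6b+/+ embryos shared litters 801 and 803, and within them the differences were of the same size. In litter 801 the 2 Kat6a-/-Kat6b+/+ embryos had a mean of 6.45 CPM for Nek3 against 15.3 CPM in their wild-type littermate, a log2 ratio of -1.24, and in litter 803 the log2 ratio was -1.39. For Smim19 these ratios were -0.62 and -0.60, and for Hgsnat 0.87 and 0.67. In a fit with a litter term, made on the 12 embryos whose litters held wild type and without surrogate variables, 2 of the 10 genes passed the FDR of 0.05, Smim19 having a log2 fold change of -0.60 in that fit.

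In Kat6a-/-Kat6b+/+ against wild type the 7 other genes did not follow. Ap3m2, which encodes a subunit of the AP-3 vesicle adaptor found mainly in neurons, starts head to head with Kat6a. It lies at chr8:23277161-23349783, and its annotated gene shares 239 bases with Kat6a. It was at 10.6, 9.00, 11.0 and 11.0 CPM in wild-type and at 9.13, 9.07, 11.9 and 8.79 CPM in Kat6a-/-Kat6b+/+ embryos. The groups overlapped, and the log2 fold change was -0.10 with a 95% confidence interval of -0.31 to 0.11, the widest of the 7. With the transgene the log2 fold change was -0.25 (interval -0.48 to -0.02), from 10.8 ± 1.20 to 8.35 ± 1.62 CPM (n = 4), and the groups overlapped as well. It was -0.40 with no or 1 surrogate variable (an estimated covariate for spread that genotype does not explain), with sex in their place and with only the 2 genotypes in the fit.

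Plat, the gene of tissue plasminogen activator, which turns plasminogen into plasmin, lies at chr8:23247709-23272871, 76.7 kb from Kat6a. It was at 35.5 ± 1.41 CPM in wild-type and 32.8 ± 1.79 CPM in Kat6a-/-Kat6b+/+ embryos (n = 4), with a log2 fold change of -0.11 and an interval of -0.22 to 0.01. The next gene outward is Ikbkb at chr8:23148709-23196607, which encodes a catalytic subunit of the kinase that releases NF-kappaB from its inhibitors. It was at 59.3 ± 4.05 and 56.1 ± 0.940 CPM, with a log2 fold change of -0.07 and an interval of -0.17 to 0.02. Both genes thus overlapped between the groups, although they lie closer to Kat6a than Nek3, Smim19 and Hgsnat do.

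Polb, the DNA polymerase of base excision repair, lies at chr8:23117532-23143575 and was at 29.8 ± 2.09 CPM in wild-type and 29.5 ± 1.32 CPM in Kat6a-/-Kat6b+/+ embryos, with an interval of -0.12 to 0.11 for the log2 fold change. Vdac3, a channel of the outer mitochondrial membrane, lies at chr8:23066114-23104500 and was at 64.9 ± 3.36 and 67.4 ± 4.29 CPM (interval -0.09 to 0.18). Slc20a2, a sodium-dependent phosphate transporter, lies at chr8:22966111-23059686 and was at 77.6 ± 3.69 and 77.0 ± 4.87 CPM (interval -0.10 to 0.07). Slc20a2 is thus beside Smim19 and shares exon bases with it, but its level did not move with that of Smim19. Golga7, a Golgi protein that works with a palmitoyltransferase of RAS proteins, lies at chr8:23731263-23747102 on the other side of Kat6a and was at 109 ± 4.42 and 111 ± 0.325 CPM (interval -0.06 to 0.11). In Kat6a-/-Tg(Kat6b) against Kat6a+/+Tg(Kat6b) embryos the log2 fold changes of these 6 genes other than Ap3m2 lay between -0.08 and 0.02.

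**Figure D2:**
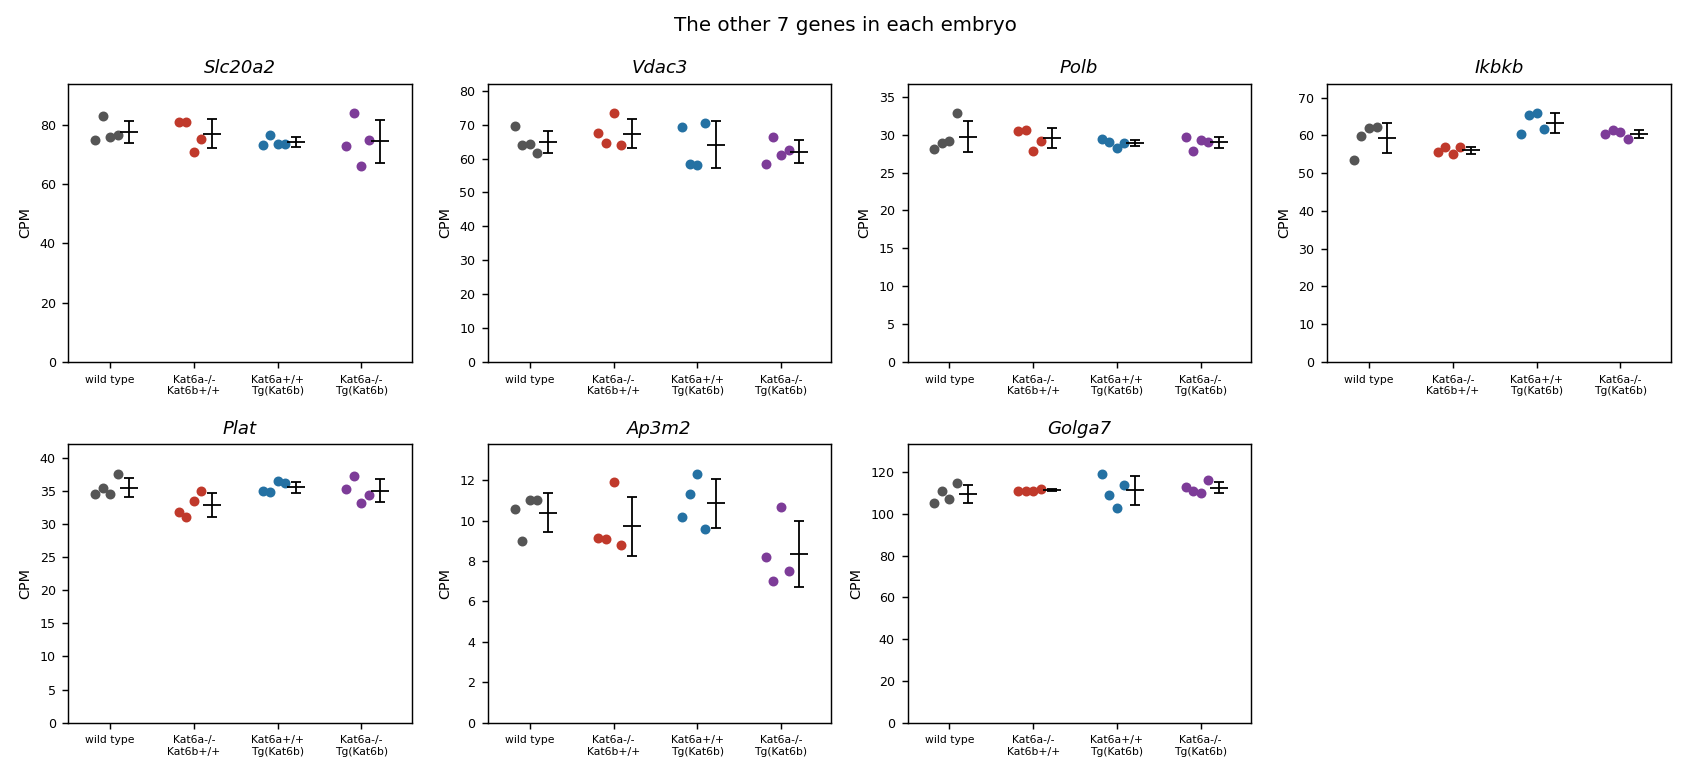
Level in CPM (vertical axes from 0) of the 7 other genes in each of the 16 embryos, by genotype, with the mean and SD of the 4 embryos beside the points. The Kat6a-/-Kat6b+/+ points overlap the wild-type points in every panel, as for Slc20a2 at 77.6 CPM in wild-type and 77.0 CPM in Kat6a-/-Kat6b+/+ embryos.

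Most of the tested genes that lay between Nek3, Smim19 and Hgsnat did not pass. Between Nek3 and Smim19 lay 5 other tested genes, whose log2 fold changes in Kat6a-/-Kat6b+/+ against wild type were -0.05 to 0.03, and none of the 5 passed the FDR of 0.05 in edgeR. Of these 5, 0 had an unadjusted p under 0.05, which 15.2% of all genes had. The nearest tested gene beyond Nek3 was Alg11 at -0.01 (SE 0.0478), and the nearest beyond Hgsnat was Pomk at 0.09 (SE 0.0580). Between Golga7 and Hgsnat lay 18 tested genes with log2 fold changes of -0.45 to 0.28, of which 2 passed, where 1.88% of all genes did. The 2 were Sfrp1, a secreted inhibitor of WNT signalling, and Adam9, a membrane metalloprotease. Of the 18, 4 had an unadjusted p under 0.05.

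Of all 47 other tested genes within 5 Mb of Kat6a, 3 passed in Kat6a-/-Kat6b+/+ against wild type (6.38%, against 1.88% over all genes), with smaller changes than the 3 described above. Sfrp1 was lower, at 218 ± 7.47 against 256 ± 6.53 CPM (log2 fold change -0.23, SE 0.0339, edgeR FDR = 0.000653). Mcph1, the gene of microcephalin, was lower, at 44.6 ± 1.55 against 51.1 ± 2.80 CPM (-0.20, SE 0.0519, edgeR FDR = 0.0487), and when the 16 embryos were dropped 1 at a time it passed 3 times (log2 fold changes -0.25 to -0.18, edgeR FDR 0.0237 to 0.186). Adam9 was higher, at 62.0 ± 3.55 against 51.5 ± 1.21 CPM (0.27, SE 0.0461, edgeR FDR = 0.00320). Sfrp1 and Adam9 passed in all 16 such fits, but neither passed with litter as a block (edgeR FDR = 0.0615 and 0.191). In Kat6a-/-Tg(Kat6b) against Kat6a+/+Tg(Kat6b) embryos 1 of the 47 passed (2.13%, against 3.41% over all genes). This was Nsd3, a histone methyltransferase gene, at 103 ± 3.32 against 95.2 ± 7.62 CPM (0.19, SE 0.0483, edgeR FDR = 0.0306), and it passed in 5 of the 16 fits without 1 embryo (0.13 to 0.22, edgeR FDR 0.0156 to 0.213). With no or 1 surrogate variable, with sex in their place or with only the 2 genotypes, its log2 fold change was 0.11 (edgeR FDR 0.287 to 0.337). In DESeq2 the number of neighbouring genes that passed was 4 without and 1 with the transgene.

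By distance from Kat6a, and with the 10 genes included, 3 of 21 tested genes within 1 Mb passed in Kat6a-/-Kat6b+/+ against wild type. It was 3 of 36 between 1 and 5 Mb and 1 of 21 from 5 to 10 Mb. From 10 to 20 Mb it was 0 of 94, from 20 to 40 Mb 0 of 56, and on all other chromosomes 274 of 14561 (1.88%). In these 5 bins of chromosome 8, from near to far, 5, 6, 5, 11 and 5 genes had an unadjusted p under 0.05, where 15.2% of all genes did. The median absolute log2 fold change was 0.05 within 1 Mb and 0.08 on the other chromosomes, so most genes near Kat6a kept their level. These counts were made from the annotation after the 10 genes had been chosen, and they contain them.

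**Figure D3:**
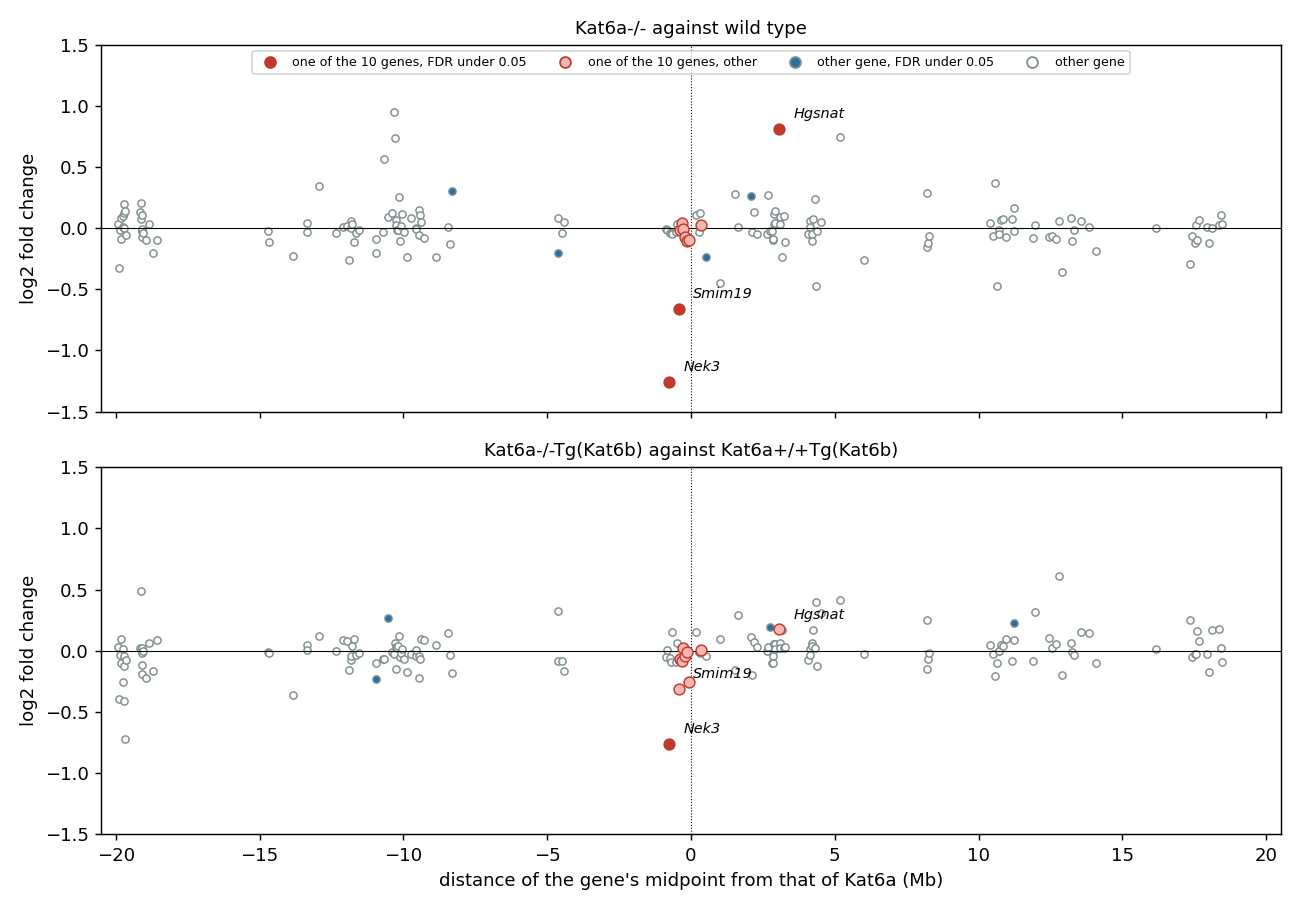
Log2 fold change of each of 172 tested genes against the distance of its midpoint from that of Kat6a (Mb, negative towards lower coordinates), for Kat6a-/- against wild type (upper panel) and Kat6a-/-Tg(Kat6b) against Kat6a+/+Tg(Kat6b) (lower panel). Points with a red edge are the 10 genes, dark red where they passed an FDR of 0.05 and pale red where they did not. Other genes are blue where they passed and white where they did not. Nek3, Smim19 and Hgsnat stand away from the line at 0 in the upper panel, and Nek3 at -0.76 does in the lower panel. Some other genes lie about as far from it without passing, such as F7 at 0.95 in the upper panel and Fcor at -0.72 in the lower. Their mean levels over all embryos were 0.355 and 0.689 CPM.

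The comparison of Kat6a-/-Tg(Kat6b) with Kat6a+/+Tg(Kat6b) embryos asks about the same loss of KAT6A in embryos with extra KAT6B, and shares no embryo with the first. Its 2 groups share no litter either, so litter and Kat6a genotype cannot be told apart in it. The levels in the 4 genotypes were known when the genes were chosen, so its values for the 10 genes are a description too. Of the 10 genes, 1 passed the FDR of 0.05 there, Nek3 (3.41% of all genes did). The count was 2, with Smim19 added, with no or 1 surrogate variable, with sex in their place, with DESeq2, with no filter, with only the 2 genotypes, and without wild-type replicate 2 or 4. Of the 10, 2 had groups that did not overlap, Nek3 and Smim19 (10.5% of all genes did). The 3 genes that differed without the transgene all had the same direction with it, with a median size of 0.81 without and 0.31 with the transgene. Of the 289 other genes outside the 5 Mb window that passed without the transgene, 234 had the same direction with it and 49 passed in that direction. The median size of the 289 was 0.37 without the transgene. With it their median change was 0.14, where a change in the opposite direction counts as negative. Against wild type, Kat6a-/-Tg(Kat6b) embryos had log2 fold changes of -1.13 (SE 0.113) for Nek3, -0.51 (SE 0.0912) for Smim19 and 0.61 (SE 0.0757) for Hgsnat, and these 3 of the 10 passed (0.670% of all genes did) and had groups that did not overlap (7.10% of all genes did). This comparison uses the same wild-type embryos as the first.

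The 8 Kat6a-/- embryos were all below the 8 Kat6a+/+ embryos in Nek3 and in Smim19. Such a separation of all 8 from all 8, in either direction, was found for 59 genes, 0.376% of those tested. The split contains the contrast that had served to choose the genes, so nothing is read from that count. Hgsnat was not among the 59 genes, while Adam9, which lies between Golga7 and Hgsnat, was.

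The comparisons of the transgene are not independent of the choice of the genes. Kat6a+/+Tg(Kat6b) against wild type uses the same wild-type embryos as the first comparison, and Kat6a-/-Tg(Kat6b) against Kat6a-/-Kat6b+/+ uses the same Kat6a-/-Kat6b+/+ embryos, so their values for the 10 genes are a description too. In Kat6a+/+Tg(Kat6b) against wild type, where both groups carried normal Kat6a, Hgsnat had a log2 fold change of 0.43 (SE 0.0734, interval 0.28 to 0.58), and 4 of 4 embryos were above all wild-type embryos. It was the 1 gene of the 10 past the FDR of 0.05 in edgeR, as were 0.140% of all genes, and nothing is read from that count. It was no longer past it with litter as a block, although both groups shared litters 2597 and 2598, nor with no or 1 surrogate variable, with sex in their place, with only the 2 genotypes, or without wild-type replicate 1, Kat6a+/+Tg(Kat6b) replicate 3 or Kat6a+/+Tg(Kat6b) replicate 1, the library with low counts on long genes. In these fits its log2 fold change was 0.40 to 0.43.

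Nek3 was lower in all 4 Kat6a+/+Tg(Kat6b) embryos than in any wild-type embryo, with a log2 fold change of -0.37 (SE 0.104, interval -0.59 to -0.16). Groups that do not overlap were found in this comparison for 4.00% of all genes, and for 2 of the 10. Smim19 was at 14.4 ± 0.938 against 16.5 ± 1.60 CPM (n = 4), with overlapping groups (-0.20, interval -0.38 to -0.02). Neither gene passed the FDR over all genes. The 7 other genes had log2 fold changes of -0.05 to 0.09.

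In litter 2597 the 3 Kat6a+/+Tg(Kat6b) embryos had a mean of 28.7 CPM for Hgsnat against 21.5 CPM in their wild-type littermate, a log2 ratio of 0.42, and in litter 2598 the ratio of 1 embryo to 1 was 0.41. For Nek3 the ratios were -0.37 and -0.41, and for Smim19 -0.12 and -0.44.

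On a scale that starts at the wild-type mean and ends at the Kat6a-/-Kat6b+/+ mean (in CPM), the Kat6a+/+Tg(Kat6b) mean lay at 40.4% of the way for Nek3, 33.3% for Smim19 and 43.9% for Hgsnat. Both ends of the scale are the groups whose difference was known when the genes were chosen, so the shares are given without a test. The Kat6a-/-Tg(Kat6b) means lay at 89.6%, 84.1% and 74.1% of the way. Nek3 and Hgsnat were 2 of only 4 genes in the whole table, 0.0255%, in which the Kat6a+/+Tg(Kat6b) embryos lay between wild type and Kat6a-/-Kat6b+/+ without overlapping either, the others being Minar2 and Lamp2. This count was chosen after the values were seen.

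In Kat6a-/-Tg(Kat6b) against Kat6a-/-Kat6b+/+ embryos, where both groups lacked normal Kat6a, none of the 10 genes passed in edgeR, against 7.14% of all genes, and 3 had an unadjusted p under 0.05. In the other tools, DESeq2 and limma-voom, the count was 0 as well. Hgsnat had a log2 fold change of -0.20 (interval -0.35 to -0.05), Nek3 of 0.12 (interval -0.12 to 0.37) and Smim19 of 0.15 (interval -0.04 to 0.34). Ikbkb, at 60.4 ± 0.979 against 56.1 ± 0.940 CPM, was the 1 gene of the 10 whose groups did not overlap, as for 15.2% of all genes, but it did not pass (0.12, interval 0.02 to 0.22).

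The difference between the Kat6a effects with and without the transgene was computed as an interaction. It contains the comparison of Kat6a-/-Kat6b+/+ with wild type, whose large values for Nek3, Smim19 and Hgsnat were known when the genes were chosen, so it is no independent test for them. It also contains the comparison of Kat6a-/-Tg(Kat6b) with Kat6a+/+Tg(Kat6b), whose groups shared no litter. Litter and Kat6a genotype cannot be told apart in that part. For Hgsnat the difference of log2 fold changes was -0.63 (SE 0.104), and it was -0.68 to -0.58 without each of the 16 embryos in turn. Of the 10 genes this 1 was past the FDR of 0.05, as were 0.153% of all genes. For Nek3 the difference was 0.49 (SE 0.160, interval 0.16 to 0.83) and for Smim19 0.35 (SE 0.127, interval 0.08 to 0.61). The 7 other genes lay between -0.15 and 0.09.

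**Figure D4:**
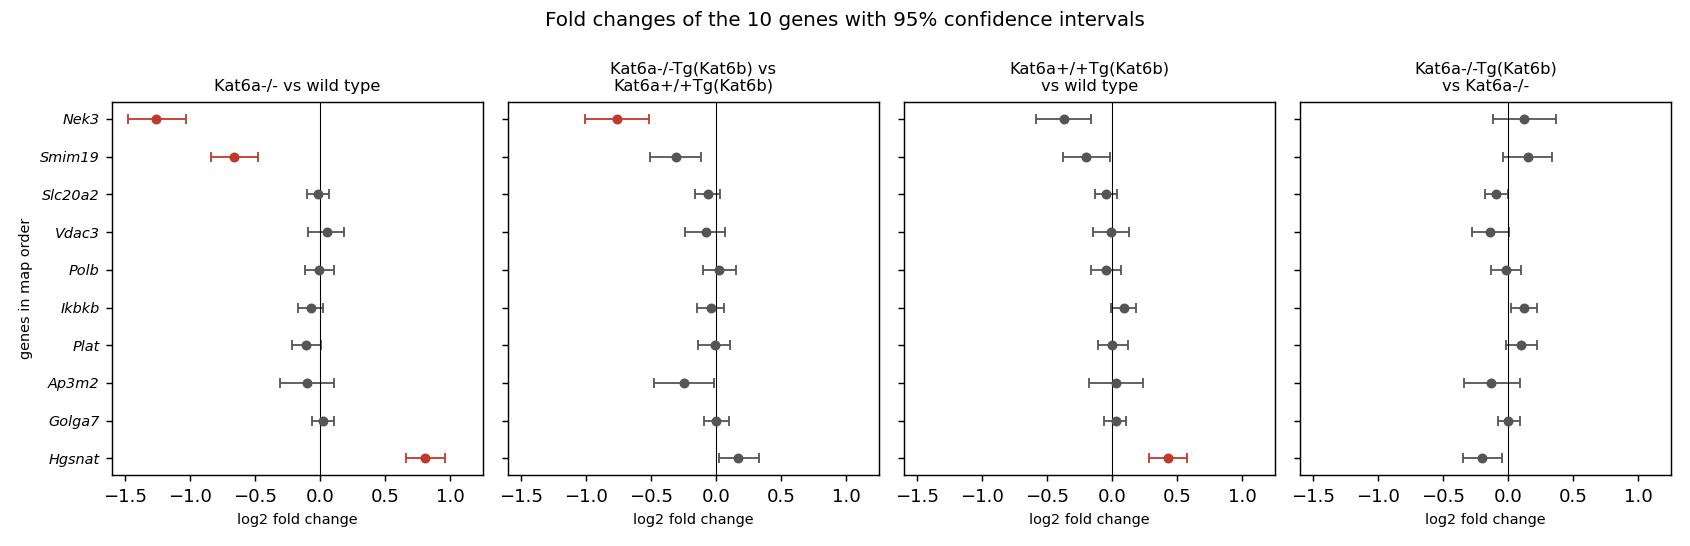
Log2 fold changes (horizontal axes) of the 10 genes in map order with 95% confidence intervals from edgeR, in 4 comparisons. Red marks an FDR under 0.05. Nek3, Smim19 and Hgsnat leave 0 in the first panel, from -1.26 to 0.81, Nek3 alone is red in the second, Hgsnat alone in the third, and no gene is red in the fourth.

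The wild-type embryos came from 2 pairs of litters, and those of litters 2597 and 2598 were compared with those of litters 801 and 803. None of the 10 genes passed in edgeR, against 0.128% of all genes, and 1 had an unadjusted p under 0.05. DESeq2 and limma-voom also gave 0. With sex as a covariate, since the wild-type embryos of the first pair were female and those of the second male, the log2 difference was -0.22 (interval -0.59 to 0.15) for Nek3, 0.22 (interval -0.07 to 0.51) for Smim19 and -0.11 (interval -0.38 to 0.16) for Hgsnat. With 2 embryos on each side these intervals were wide.

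Over the 16 embryos, the genes most like Nek3 in log2 CPM were Smim19 (Pearson's r = 0.90), Adam9 (r = -0.89) and Ezh2 (r = 0.86), and those most like Smim19 were Sting1 (r = -0.90), Nek3 and Ezh2 (r = 0.90). The nearest to Hgsnat were Hip1r (r = -0.89), Smim19 (r = -0.89) and Adam9 (r = 0.88). The points share the 4 genotypes. Within genotypes, which was computed for these 3 genes alone, Nek3 and Smim19 had r = -0.06, Nek3 and Hgsnat 0.49, and Smim19 and Hgsnat -0.21. For the 7 other genes, 0 of the 21 most alike genes lay on chromosome 8. Of all 15679 tested genes, 14561 were placed on other chromosomes, so nothing is read from that count.

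Genes elsewhere in the genome that work with the 10 were followed as 9 lists, of 74 genes in all, among them the NF-kappaB pathway of Ikbkb, base excision repair for Polb, the other AP-3 subunits, the plasminogen system for Plat, the enzymes that break down heparan sulfate with Hgsnat, and the other NIMA-related kinases. Of the 70 tested, none passed in Kat6a-/-Kat6b+/+ against wild type in edgeR, and 11 had an unadjusted p under 0.05, as had 15.2% of all genes. Their median log2 fold change was 0.00. The 8 genes of heparan sulfate breakdown had log2 fold changes of -0.15 to 0.08 while Hgsnat was at 0.81, and the 7 tested NIMA-related kinases -0.03 to 0.10 while Nek3 was at -1.26. With the transgene 12 of the 70 had an unadjusted p under 0.05, as had 18.9% of all genes, and 1 passed, where 3.41% of all genes did. It was Nfkb2, an NF-kappaB subunit (0.29, SE 0.0810, edgeR FDR = 0.0488).

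The median summed level of macrophage markers was higher in Kat6a-/- than in Kat6a+/+ embryos of the same transgene state. The sums of both Kat6a-/- groups overlapped those of wild type. The summed level of 5 macrophage markers was 3.04 to 8.30 CPM in wild-type, 8.07 to 18.3 CPM in Kat6a-/-Kat6b+/+, 3.43 to 4.56 CPM in Kat6a+/+Tg(Kat6b) and 5.12 to 9.51 CPM in Kat6a-/-Tg(Kat6b) embryos, with 3 of the 4 tested markers higher in Kat6a-/-Kat6b+/+ than in wild type and 2 higher in Kat6a-/-Tg(Kat6b) than in Kat6a+/+Tg(Kat6b). The 3 neural markers summed to 296 to 307 CPM in wild-type, 279 to 292 CPM in Kat6a-/-Kat6b+/+, 317 to 345 CPM in Kat6a+/+Tg(Kat6b) and 281 to 295 CPM in Kat6a-/-Tg(Kat6b) embryos. With the transgene 2 of these 3 were lower in the Kat6a-/- embryos, and without it 0 passed. Over all genes, 3.41% passed with the transgene and 1.88% without it. Of the 3 somite markers, 1 was lower in Kat6a-/-Tg(Kat6b) than in Kat6a+/+Tg(Kat6b) embryos, with sums of 104 to 116 against 115 to 125 CPM. Visceral endoderm markers summed to 10.5 to 50.1 CPM in wild-type, 4.64 to 11.4 CPM in Kat6a-/-Kat6b+/+, 1.65 to 43.4 CPM in Kat6a+/+Tg(Kat6b) and 32.0 to 44.9 CPM in Kat6a-/-Tg(Kat6b) embryos, and 0 of 4 passed in either comparison. None of these marker genes was at 0 in all embryos, and their part in the levels of Nek3, Smim19 and Hgsnat was not tested.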

How the data were processed

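Libraries from whole-embryo RNA (E9.5) were made with a kit that does not keep strand. The authors aligned the reads to mm39 (GRCm39), counted them per gene with featureCounts, whose strand setting is not given in the sources used here, and deposited raw counts per gene and embryo with gene lengths. Genes were kept with edgeR's filterByExpr, scaled by TMM and tested with edgeR 4.0.16 (R 4.3.3) in 1 robust quasi-likelihood fit over the 16 embryos, with 2 surrogate variables from sva 3.50.0 and Benjamini-Hochberg adjustment over all 15679 genes. CPM and RPKM were computed from the counts. Positions are those of GENCODE on GRCm39, found for 25282 of the 26411 genes by symbol. The genes, lists and tests were chosen with earlier results of these data known. The named genes are the 10, Kat6a and Kat6b, the other genes within 5 Mb that passed in a comparison of Kat6a genotypes, partner genes that passed, and the 3 genes most correlated with each of the 10, of which those of Nek3, Smim19 and Hgsnat are printed. Nfkb2, Alg11, Pomk, Minar2, Lamp2, F7 and Fcor were named after their values were seen. The embryos are separate animals. The labels' replicate numbers did not pair them, as correlations of same-numbered embryos were -0.26 to 0.22. No replicates agreed within sampling noise (chi-square per degree of freedom 1.83 to 15.9). The script was tested on simulated data. Intervals give the uncertainty of a log2 fold change, estimated from the spread between embryos in fits without a litter term.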

Additional observations from a re-analysis of the deposited data

Results flagged for a closer look

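In 3 of the 40 groups of 4 embryos formed by the 10 genes and 4 genotypes, 1 embryo stood apart from the other 3 by Dixon's criterion, which chance gives in about 1 of 20 groups. Smim19 was at 18.9 CPM in wild-type replicate 4, where the other wild-type embryos were at 15.5 to 15.9 CPM. Slc20a2 was at 76.7 CPM in Kat6a+/+Tg(Kat6b) replicate 2, with the others at 73.3 to 73.7 CPM. Ap3m2 was at 11.9 CPM in Kat6a-/-Kat6b+/+ replicate 3, with the others at 8.79 to 9.13 CPM. The log2 fold change of Hgsnat between Kat6a genotypes was smaller with the transgene than without it, with a difference of log2 fold changes of -0.63. This is no independent test because the gene was chosen with its Kat6a difference known. With the transgene the Kat6a genotypes shared no litter, so litter and Kat6a genotype cannot be told apart there.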

How the results depend on the processing

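The counts of the 10 genes that passed an FDR of 0.05 stayed within 1.5 times their value under every alternative for Kat6a-/-Kat6b+/+ against wild type (3), Kat6a-/-Tg(Kat6b) against wild type (3), Kat6a-/-Tg(Kat6b) against Kat6a-/-Kat6b+/+ (0), the interaction (1) and the wild-type litter pairs (0), and so did the 0 partner genes. For Kat6a-/-Tg(Kat6b) against Kat6a+/+Tg(Kat6b) the count was 2 in place of 1 with no or 1 surrogate variable, with sex in their place, with DESeq2, with no filter and with only the 2 genotypes, the added gene being Smim19 in each, and 1 to 2 without single embryos, being 2 without wild-type replicate 2 or 4. For Kat6a+/+Tg(Kat6b) against wild type it was 0 in place of 1 with no or 1 surrogate variable, with sex, with litter as a block and with only the 2 genotypes, and 0 to 1 without single embryos, Hgsnat being the gene lost. Of the neighbouring genes, the 3 without the transgene became 0 with litter as a block and 1 within 2 Mb, and 2 to 4 without single embryos. The 1 with the transgene became 0 with no or 1 surrogate variable, with sex, with at least 10 counts in every embryo, with the replicate block, with only the 2 genotypes and within 2 Mb, 2 with no filter and 4 within 20 Mb, and was 0 to 2 without single embryos. The replicate block, in which embryos share only a number, changed no other count. With the transgene the log2 fold change of Slc20a2 turned from -0.06 to 0.01 with no or 1 surrogate variable and to 0.00 with sex or only the 2 genotypes. With at least 10 counts in every embryo, that of Ikbkb turned from -0.07 to 0.03 against wild type and from 0.12 to -0.03 between the Kat6a-/- groups. Changes of sign by less than the standard error, where neither value passed, were not counted. Smim19 in Kat6a-/-Kat6b+/+ against wild type passed under 10 of 11 alternatives, all but the litter block (-0.60). The cause of these changes was not tested. The litter block could not be fitted where Kat6a-/-Tg(Kat6b) embryos enter, since their litters held no other genotype. Of 80 mean levels under other scalings, 1 moved by more than 1 SD. Nek3 was counted 98 to 388 times in an embryo, which limits how small a change in it could be seen.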
